A study of Mus musculus with 9 samples.

Results

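Type I interferon-stimulated genes are the genes that cells switch on when they sense interferon-alpha or interferon-beta, and 41 of them were followed here in mouse CD4+ T cells. The list holds cytosolic RNA sensors, antiviral effectors, the ISG15 and ubiquitin system, ADP-ribosyltransferases of the PARP family, Schlafen genes and other induced genes. Of the 41 genes, 39 had a row among the 16500 genes with expression values, and Oas2 and Oasl2 were not analysed here. Genes with at least 1 CPM (counts scaled to the same total in each library) in at least 3 libraries were tested, which were 35 of the 39 and 13090 of all 16500. Members were chosen by gene name, but with earlier results of these data known, so counts over them are descriptions.

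The cells were primary CD4+ T cells of C57BL/6 mice, transduced by retrovirus and grown in RPMI-1640 medium with serum. A Control vector, an NFAT2-CA vector and an NFAT2-CARIT vector were each sequenced in 3 libraries. All 3 groups therefore share the retroviral transduction, and the labels give no untransduced cells, age, sex or added interferon. NFAT2 is the calcium-regulated transcription factor encoded by Nfatc1. In the NFAT literature CA stands for a constitutively active protein, and CARIT for an active protein with further changes that weaken its contact with AP-1, although the labels do not spell these names out. Whether the 3 libraries of a group came from separate mice or cultures is not given in the labels, so that p-values measure the spread between these libraries, which may be technical.

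Interferon-alpha and interferon-beta bind a receptor made of IFNAR1 and IFNAR2, which carries the kinases TYK2 and JAK1. The kinases phosphorylate STAT proteins, STAT2 among them, and these join IRF9 in a complex called ISGF3 that binds interferon-stimulated response elements (ISREs) in the promoters of the genes described here. Resting T cells keep a low tonic level of many of these genes from small amounts of interferon in their surroundings, and some of them, Schlafen genes among them, are also tied to T cell quiescence.

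Estimated depth was 19950700 to 38188800 reads per library, so that 1 CPM rests on 20.0 to 38.2 reads and 3 reads equal 0.0786 to 0.150 CPM. Nfatc1 was at 188 to 228 CPM in Control, 336 to 395 CPM with NFAT2-CA and, with NFAT2-CARIT, 240.5 to 253 CPM. It was higher than in Control by 0.74 ± 0.08 (adjusted p = 3.6e-07) on the log2 scale with NFAT2-CA and by 0.21 ± 0.08 (adjusted p = 0.023) with NFAT2-CARIT, and the second call was lost without Control replicate 3 (0.12, adjusted p = 0.10), without NFAT2-CARIT replicate 2 (0.21, adjusted p = 0.055) and without NFAT2-CARIT replicate 3 (0.19, adjusted p = 0.07). The table that the authors deposited, made with DESeq2, gives the second as 0.21 (adjusted p = 0.19). Of 8 markers of CD4 T cells all were measured, and Cd4 itself was at 1571 ± 58.5 CPM in Control, 1619.5 ± 57.7 CPM with NFAT2-CA and, with NFAT2-CARIT, 1660.2 ± 45.7 CPM. Their summed level was 9406 to 10052, 6467 to 6924 and 5955 to 6099 CPM in the 3 groups, the lower sums coming with Thy1, a T cell surface protein, at 4748 ± 235, 649 ± 14.8 and 657 ± 7.40 CPM. Of the 8 markers 4 were called higher and 2 lower with NFAT2-CA, and 2 higher and 3 lower with NFAT2-CARIT. Of all genes tested, 29.0% were called higher and 36.5% lower with NFAT2-CA, and 29.2% and 41.1% with NFAT2-CARIT. With NFAT2-CA the T cell receptor complex genes Cd3e, Cd3g, Trac and Cd3d were 2.26-fold, 1.46-fold, 1.44-fold and 1.28-fold higher in their means. Of the other receptor chain genes on the list, Trbc2 was called lower (log2 fold change -0.15 ± 0.07) and Trbc1 did not pass (-0.14 ± 0.07). With NFAT2-CARIT Cd3e and Trac were 1.68-fold and 1.44-fold higher, and Cd3d and Cd3g did not pass. Trbc1 and Trbc2 were both called lower with that vector (-0.21 ± 0.07 and -0.36 ± 0.07).

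Most of the interferon-stimulated genes were lower with either NFAT2 vector than in Control. With NFAT2-CA 29 of the 35 tested were called lower (82.9%), led by the helicase gene Ddx60, which fell from 14.7 ± 1.56 to 1.09 ± 0.337 CPM (SD, n = 3 libraries). With NFAT2-CARIT 29 of 35 were again called lower, and Ddx60 stood at 1.10 ± 0.221 CPM. Rsad2, which encodes the antiviral enzyme viperin, and Ifi27l2a, a small interferon-induced membrane protein gene, went the other way with both vectors. Isg20, an exonuclease gene, was lower than Control with NFAT2-CA and higher with NFAT2-CARIT.

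These calls come from limma at an adjusted p under 0.05, and most of the transcriptome was called too. Among all 13090 genes tested, 36.5% were called lower and 29.0% higher with NFAT2-CA, and 41.1% were called lower and 29.2% higher with NFAT2-CARIT. Members called higher were 3 with NFAT2-CA (Dhx58, Rsad2 and Ifi27l2a) and 3 with NFAT2-CARIT (Rsad2, Isg20 and Ifi27l2a). The members' share of lower calls was thus above the background share in both comparisons and their share of higher calls below it. Ifit1, Mx1 and Parp12 reached 1 CPM only in Control libraries, so that a fall was built into their being tested, and without them 26 of 32 members (81.2%) were called lower in each comparison. They also dropped out of the test whenever 1 of the 3 Control libraries was left out.

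The median log2 fold change of the 35 members, on CPM + 1, was -1.04 with NFAT2-CA and -1.13 with NFAT2-CARIT, against -0.06 and -0.09 for all genes tested. Without Ifit1, Mx1 and Parp12 the medians were -0.98 and -1.0. Library by library, the median over all 35 members, Ifit1, Mx1 and Parp12 included, was taken relative to the Control mean. It was between -0.00 and 0.01 in the Control libraries, which are themselves the reference. The NFAT2-CA libraries were between -1.10 and -0.98 and the NFAT2-CARIT libraries between -1.13 and -1.04. On this median every NFAT2 library was below every Control library. Library medians without Ifit1, Mx1 and Parp12 were not computed. The 2 comparisons share the Control libraries, so the likeness of their values is not independent evidence.

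At a size of at least 2-fold, 18 of 35 members (51.4%) were called lower with NFAT2-CA, where 5.63% of all genes were, and 1 was called higher, where 8.17% of all genes were. With NFAT2-CARIT 20 of 35 (57.1%) were called lower by at least 2-fold, where 8.63% of all genes were, and 2 were called higher, where 8.62% were. Without Ifit1, Mx1 and Parp12 the members lower by at least 2-fold were 15 of 32 (46.9%) with NFAT2-CA and 17 of 32 (53.1%) with NFAT2-CARIT. The authors' deposited table, made with DESeq2, called 24 of 39 members lower and 2 higher with NFAT2-CA, where it called 10.4% and 11.4% of all its genes. It called 23 of 39 lower and 2 higher with NFAT2-CARIT, where it called 13.5% and 12.1% of all genes. Calls made by limma and not by that table were those of Ifih1, Dhx58, Ifit1, Isg20, Usp18 and Ifi35 with NFAT2-CA, and of Ifit1, Cmpk2, Isg20, Usp18, Trim25, Parp12 and Ifi35 with NFAT2-CARIT.

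**Figure D1:**
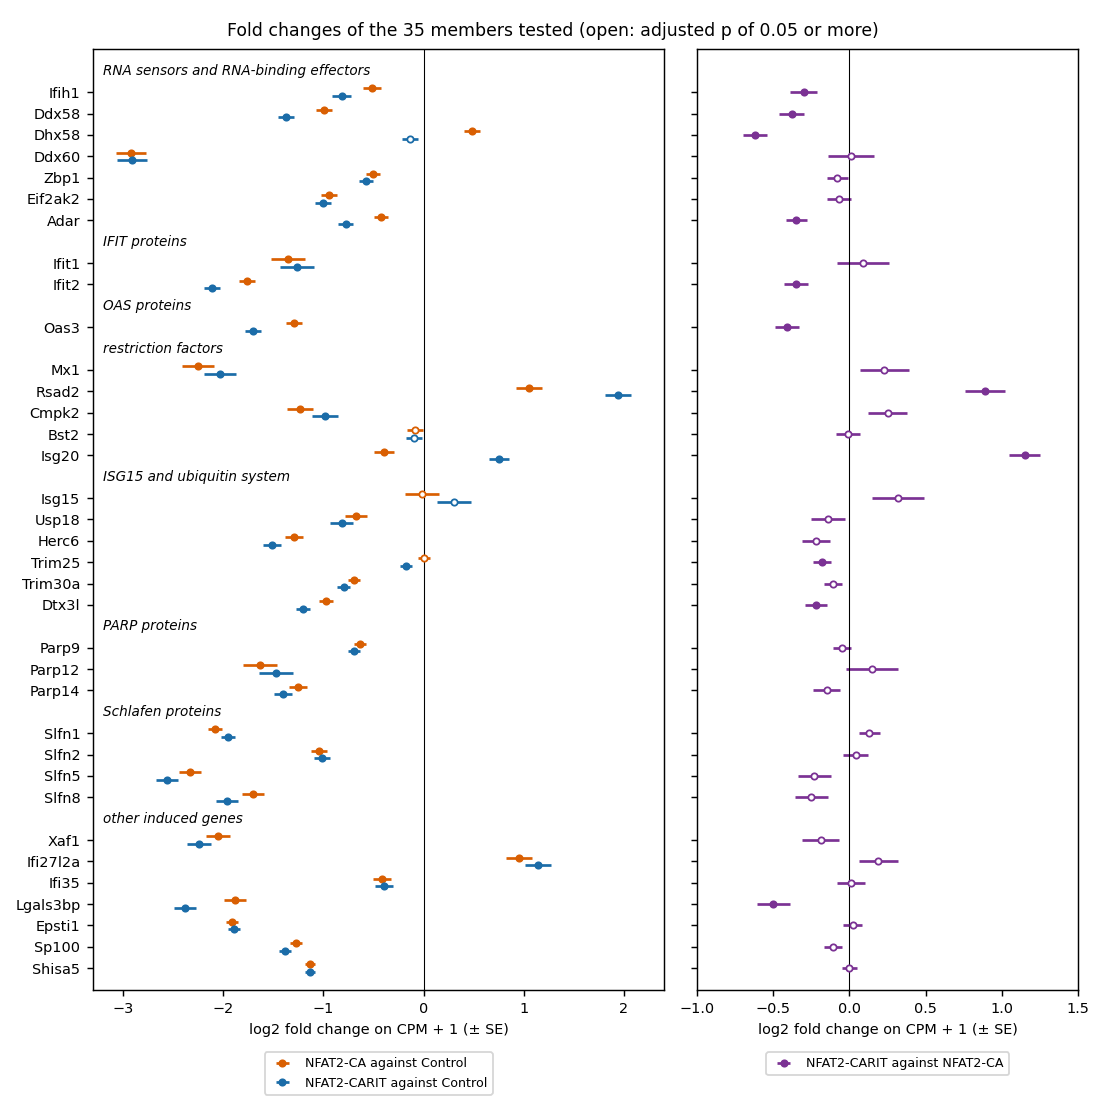
Log2 fold change on CPM + 1 (horizontal axis, bars are SE) of the 35 members tested, grouped by role, for NFAT2-CA and NFAT2-CARIT against Control (left) and for NFAT2-CARIT against NFAT2-CA (right); open points did not pass the test. Most points on the left lie below 0, from -2.92 (Ddx60) up, with Rsad2 and Ifi27l2a above 0 for both vectors.

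**Figure D2:**
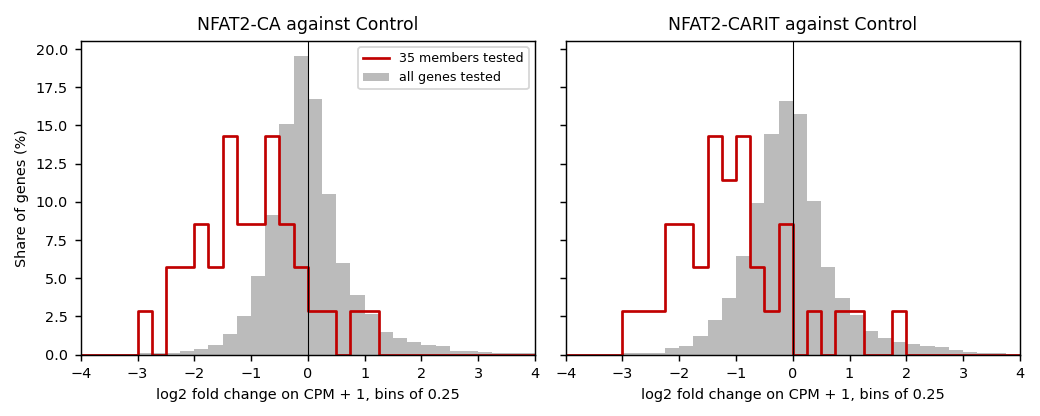
Share of genes (vertical axis, percent) per bin of log2 fold change on CPM + 1 (horizontal axis) for all 13090 genes tested (grey) and for the 35 members (red line), with NFAT2-CA against Control on the left and NFAT2-CARIT against Control on the right. The grey bars are centred near 0 and the members are shifted to the left, with medians of -1.04 and -1.13.

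Promoters were read to show whether the members share the element that ISGF3 binds. RefSeq promoter windows on GRCm38.p6, 300 bases from 250 before to 50 after a gene's start, matched 32 of the 41 members with 44 windows, since some genes have several starts. The ISRE core was searched on both strands as 2 copies of GAAA with any 2 bases between them. It was in 17 of the 44 member windows (38.6%) and in 3.44% of all 32851 windows, and 15 of the 32 member genes had at least 1. The AP-1 site TGANTCA was in 13.6% of member windows and 7.81% of all, and the NFAT core GGAAA, short enough to be common, in 86.4% and 61.3%. A GGAAA match can share its GAAA with an ISRE core, so those counts overlap. A match describes the letters and shows no binding.

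The 4 promoters below belong to tested genes with an ISRE core in a window, chosen by the mean log2 fold change of both comparisons with Control. Among such genes Ddx60 (-2.92) and Slfn5 (-2.45) had the largest falls. Rsad2 (1.5) and Isg15 (0.14) had the largest rises, although Isg15 passed against Control with neither vector. Each promoter is shown as the 250 bases before the start, 5′ to 3′ on the gene's strand, with the ISRE core matches in capitals. Ddx60 lies at chr8:61927837-61928086 (+), Slfn5 at chr11:82951852-82952101 (+), Rsad2 at chr12:26456453-26456702 (-) and Isg15 at chr4:156200819-156201068 (-).
Ddx60: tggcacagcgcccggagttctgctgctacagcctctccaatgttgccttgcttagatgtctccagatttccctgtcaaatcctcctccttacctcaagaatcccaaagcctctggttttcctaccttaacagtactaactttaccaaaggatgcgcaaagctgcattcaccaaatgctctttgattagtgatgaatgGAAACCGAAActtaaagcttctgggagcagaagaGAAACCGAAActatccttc
Slfn5: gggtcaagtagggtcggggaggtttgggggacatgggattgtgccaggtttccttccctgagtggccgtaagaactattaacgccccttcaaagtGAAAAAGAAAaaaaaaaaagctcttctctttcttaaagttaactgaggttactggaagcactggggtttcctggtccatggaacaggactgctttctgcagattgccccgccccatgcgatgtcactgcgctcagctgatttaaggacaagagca
Rsad2: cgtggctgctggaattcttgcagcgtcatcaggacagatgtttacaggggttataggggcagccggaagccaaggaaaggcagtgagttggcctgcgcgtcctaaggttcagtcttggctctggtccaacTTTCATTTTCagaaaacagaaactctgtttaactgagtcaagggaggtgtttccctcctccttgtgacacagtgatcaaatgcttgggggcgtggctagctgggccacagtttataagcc
Isg15: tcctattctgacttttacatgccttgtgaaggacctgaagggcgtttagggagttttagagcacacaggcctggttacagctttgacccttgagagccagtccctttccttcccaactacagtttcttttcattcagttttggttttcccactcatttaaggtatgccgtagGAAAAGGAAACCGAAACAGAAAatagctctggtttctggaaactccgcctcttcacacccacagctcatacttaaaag
The Ddx60 promoter held 2 separate cores, starting 53 and 19 bases before the start site. The Slfn5 core began 155 bases before the start and runs into a stretch of A. In Rsad2 a single core lay on the other strand, 120 bases before the start, and in Isg15 3 cores overlapped between 78 and 66 bases before it. Since these 4 were picked among the genes that hold the element, its presence in them tells nothing about the direction of change. Slfn1, Epsti1, Xaf1 and Lgals3bp also fell with both vectors and had no core in their windows.

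**Figure D3:**
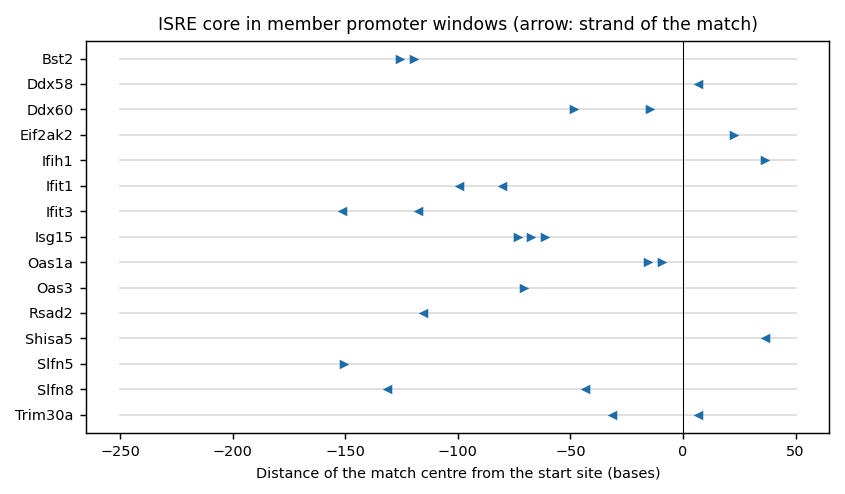
Position of each ISRE core match (triangle, pointing along the strand of the match) in the promoter windows of the 15 member genes that hold one, as distance in bases from the start site (horizontal axis). Most matches begin within the 156 bases before the start, and those of Ddx58, Eif2ak2, Ifih1 and Shisa5 and 1 of the 2 in Trim30a lie at or after it.

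RNA sensors and RNA-binding effectors detect or edit double-stranded RNA in the cytosol. With NFAT2-CA 6 of the 7 fell and 1, Dhx58, rose, and with NFAT2-CARIT 6 fell and Dhx58 did not pass. The background for this and the later counts by role is the share of all genes tested. With NFAT2-CA 36.5% were called lower and 29.0% higher, and with NFAT2-CARIT 41.1% and 29.2%. Log2 fold changes ran from -2.92 to 0.48 with NFAT2-CA and from -2.91 to -0.14 with NFAT2-CARIT.

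Ddx60 encodes a helicase that works with RIG-I. It was at 14.2, 16.5 and 13.5 CPM in the Control libraries, 0.967, 0.838 and 1.48 CPM in the NFAT2-CA libraries and 0.864, 1.13 and 1.30 CPM in the NFAT2-CARIT libraries. All 6 NFAT2 libraries were far below all Control libraries and overlapped each other. Its mean was 13.5-fold lower with NFAT2-CA and 13.4-fold lower with NFAT2-CARIT, with log2 fold changes of -2.92 ± 0.15 (adjusted p = 5e-11) and -2.91 ± 0.15 (adjusted p = 4.4e-11).

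Ddx58 encodes RIG-I itself, which recognises RNA with a triphosphate end. Its levels were 149, 150.1 and 133 CPM in Control, 66.6, 73.6 and 75.2 CPM with NFAT2-CA and, with NFAT2-CARIT, 48.7, 59.7 and 56.7 CPM. The 3 groups did not overlap, and NFAT2-CARIT was the lowest. The log2 fold changes were -0.99 ± 0.08 (adjusted p = 1.1e-08) and -1.37 ± 0.08 (adjusted p = 1.5e-10), and that between the vectors was -0.38 ± 0.08 (adjusted p = 0.0017).

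Eif2ak2 encodes PKR, a kinase that stops translation when it binds double-stranded RNA. Control libraries held 29.9, 29.8 and 29.9 CPM, NFAT2-CA libraries 15.0, 14.0 and 16.5 CPM and NFAT2-CARIT libraries 13.2, 15.0 and 15.1 CPM. Both NFAT2 groups were below Control without overlap and overlapped each other, with log2 fold changes of -0.94 ± 0.08 (adjusted p = 5.4e-08) and -1.0 ± 0.08 (adjusted p = 2e-08).

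The remaining sensors changed less. Ifih1, which encodes the long double-stranded RNA sensor MDA5, had log2 fold changes of -0.52 ± 0.09 and -0.82 ± 0.09. Zbp1, a sensor of Z-form nucleic acids that can start necroptosis, had -0.51 ± 0.07 and -0.58 ± 0.07, and the RNA-editing enzyme gene Adar had -0.43 ± 0.07 and -0.78 ± 0.07. Dhx58 encodes LGP2, a regulator of RIG-I and MDA5, and was at 31.7, 26.9 and 33.0 CPM in Control, with NFAT2-CA at 44.2, 43.9 and 40.4 CPM and NFAT2-CARIT at 29.7, 26.9 and 26.3 CPM. Only the NFAT2-CA libraries stood apart, higher by 0.48 ± 0.08 (adjusted p = 7.8e-05), and the authors' deposited table gives 0.49 (adjusted p = 0.13). Without Control replicate 2 Dhx58 was called lower with NFAT2-CARIT (-0.22, adjusted p = 0.024). Dhx58 overlaps an antisense gene, Dhx58os, by 2638 bases and Adar overlaps Chrnb2 on the other strand by 7253 bases, and the use of strand in counting is not given in the sources used here.

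IFIT proteins bind foreign RNA ends and block their translation, and their genes sit together on chromosome 19 (34550694 to 34650010). Ifit2 was at 46.2, 45.7 and 47.0 CPM in Control, 12.7, 12.3 and 14.0 in NFAT2-CA and 9.58, 10.5 and 9.72 in NFAT2-CARIT libraries. The groups did not overlap, with Control highest and NFAT2-CARIT lowest. Its log2 fold changes were -1.76 ± 0.08 (adjusted p = 9.8e-12) and -2.11 ± 0.08 (adjusted p = 8.8e-13), means 3.57-fold and 4.65-fold lower.

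Ifit1 was low everywhere, at 2.63, 2.39 and 3.43 CPM in Control, 0.558, 0.377 and 0.548 CPM with NFAT2-CA and, with NFAT2-CARIT, 0.471, 0.467 and 0.852 CPM. It reached 1 CPM only in Control libraries, so its fall was built into its being tested. The Control libraries were above all others, with log2 fold changes of -1.35 ± 0.17 (adjusted p = 2.5e-06) and -1.26 ± 0.17 (adjusted p = 4.7e-06), and neither passed in the authors' deposited table (adjusted p = 0.084 and 0.12). Ifit3 stayed under the filter at 1.20, 0.890 and 1.07 CPM in Control, 0.0371, 0.209 and 0.253 in NFAT2-CA and 0.131, 0.329 and 0.10 in NFAT2-CARIT libraries. Its Control libraries too were above all 6 NFAT2 libraries, some of which were at no more than 3 reads. Without a filter on low values Ifit3 had log2 fold changes of -0.82 ± 0.14 (adjusted p = 0.00013) and -0.79 ± 0.14 (adjusted p = 0.00015).

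OAS enzymes make oligoadenylates that activate RNase L, which cuts viral and cellular RNA. Oas3, the only OAS gene tested, was at 45.6, 46.4 and 40.7 CPM in Control, 16.9, 18.4 and 17.2 in NFAT2-CA and 12.1, 13.9 and 12.7 in NFAT2-CARIT libraries. The 3 groups were separate, in the order Control, NFAT2-CA, NFAT2-CARIT, with log2 fold changes of -1.29 ± 0.08 (adjusted p = 7e-10) and -1.70 ± 0.08 (adjusted p = 1.7e-11) against Control. Oas1a and Oasl1 stayed under the filter, Oas1a at 0.75 to 1.06 CPM in Control and 0.126 to 0.601 CPM in the NFAT2 libraries, Oasl1 at 0.25 to 0.807 and 0.1 to 0.631 CPM. The Oasl1 libraries overlapped across groups.

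Restriction factors block single steps of viral growth, and their calls went in both directions. With NFAT2-CA 3 of the 5 tested fell, 1 rose and 1 did not pass, and with NFAT2-CARIT 2 fell, 2 rose and 1 did not pass. The fall of Mx1 was built into its being tested. Without it 2 of 4 fell and 1 rose with NFAT2-CA, and 1 fell and 2 rose with NFAT2-CARIT. Of all genes tested 36.5% were called lower and 29.0% higher with NFAT2-CA, and 41.1% and 29.2% with NFAT2-CARIT. Counts among 4 genes are too few to be set apart from these shares. Mx1, a dynamin-like GTPase active against influenza virus, was at 5.35, 4.88 and 6.70 CPM in Control, 0.372, 0.545 and 0.253 CPM with NFAT2-CA and, with NFAT2-CARIT, 0.602, 0.439 and 0.852 CPM. Every NFAT2 library was under 1 CPM and every Control library above 4, with log2 fold changes of -2.25 ± 0.16 (adjusted p = 4.2e-09) and -2.03 ± 0.16 (adjusted p = 1.3e-08).

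Rsad2 rose. Viperin, its product, makes a chain-terminating nucleotide from CTP. The gene was at 4.21, 4.03 and 2.62 CPM in Control, 8.33, 8.0 and 8.94 CPM with NFAT2-CA and, with NFAT2-CARIT, 16.9, 15.5 and 17.0 CPM. The 3 groups did not overlap and NFAT2-CARIT was highest, 4.55-fold above Control, against 2.33-fold for NFAT2-CA. The log2 fold changes were 1.05 ± 0.13 (adjusted p = 2.4e-06) and 1.94 ± 0.13 (adjusted p = 1.1e-09), and NFAT2-CARIT was above NFAT2-CA by 0.89 ± 0.13 (adjusted p = 8.5e-05), a difference that the authors' deposited table gives as 0.97 (adjusted p = 0.42).

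Cmpk2, a mitochondrial nucleotide kinase gene whose product supplies CTP, is the neighbour of Rsad2 on chromosome 12. The genes are read away from each other from starts 12751 bases apart (Rsad2 26442746 to 26456453, Cmpk2 26469204 to 26479838), and both are classical interferon targets. Cmpk2 was at 10.4, 9.95 and 9.21 CPM in Control, with NFAT2-CA at 3.05, 3.44 and 4.51 CPM and NFAT2-CARIT at 4.40, 4.5 and 4.61 CPM. In contrast to Rsad2, all NFAT2 libraries were below all Control libraries, with log2 fold changes of -1.23 ± 0.13 (adjusted p = 2.8e-07) and -0.98 ± 0.13 (adjusted p = 3.4e-06). The second of these did not pass in the authors' deposited table (adjusted p = 0.1).

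Isg20 encodes an exonuclease that degrades single-stranded RNA. Its levels were 13.2, 11.8 and 12.6 CPM in Control, 7.81, 10.1 and 10.1 in NFAT2-CA and 21.7, 22.7 and 21.0 in NFAT2-CARIT libraries. The NFAT2-CA libraries lay below the Control libraries and the NFAT2-CARIT libraries above them, with no overlap among the 3 groups. The log2 fold changes were -0.40 ± 0.10 (adjusted p = 0.0022) with NFAT2-CA and 0.75 ± 0.10 (adjusted p = 4.6e-06) with NFAT2-CARIT, and the vectors differed by 1.15 ± 0.10 (adjusted p = 3.9e-07). In the authors' deposited table neither comparison with Control passed (adjusted p = 0.48 and 0.07), while the difference between the vectors did, at 1.23 (adjusted p = 0.017).

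Bst2, which encodes tetherin, was at 20.4 to 24.9 CPM in all 9 libraries and passed in no comparison, with log2 fold changes of -0.09 ± 0.08 and -0.10 ± 0.08. Rtp4, an inhibitor of viral replication, was under the filter at 0.977, 1.04 and 1.21 CPM in Control and was listed at 0 in all 6 NFAT2 libraries.

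**Figure D4:**
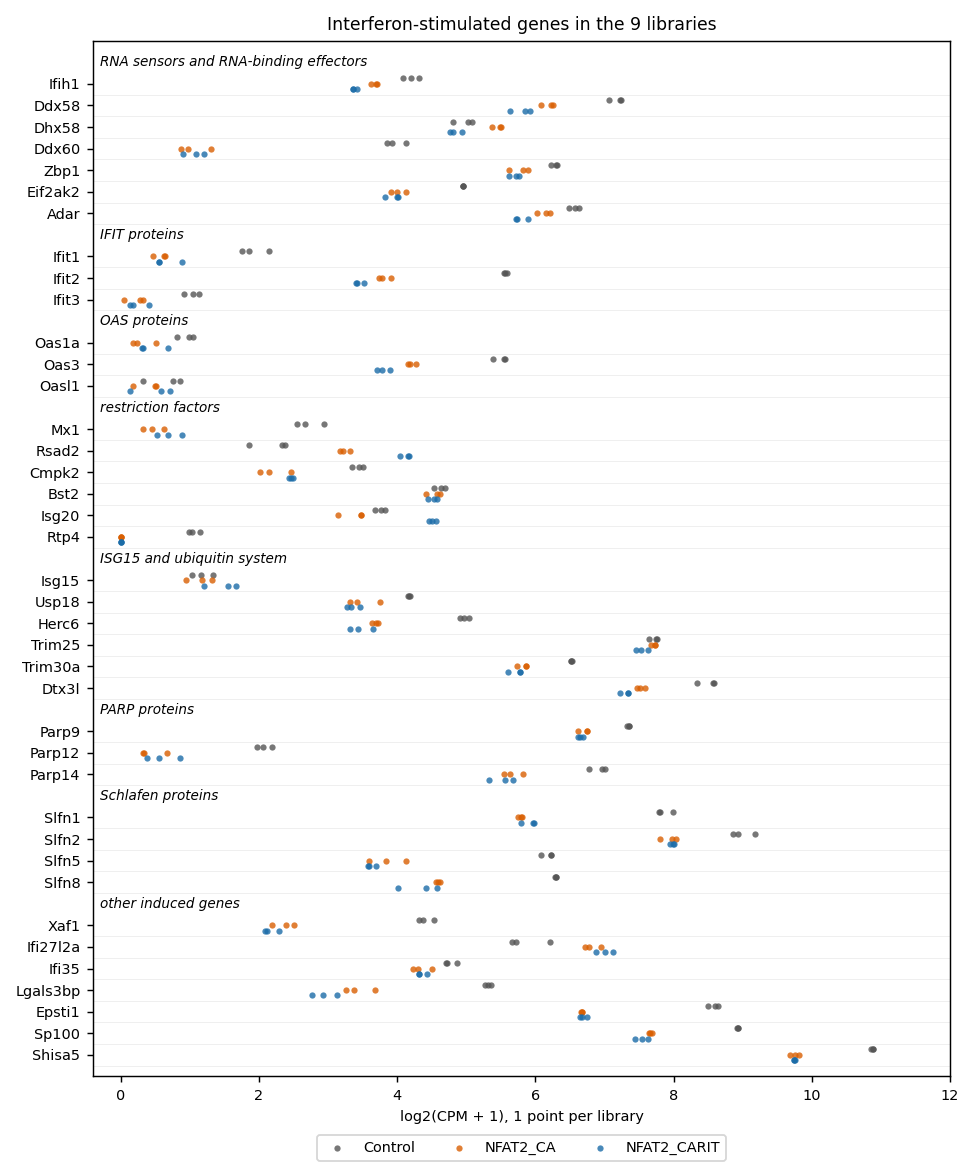
Level of the 39 members with a row in each of the 9 libraries, as log2(CPM + 1) on the horizontal axis, 1 point per library, coloured by group and ordered by role. For most genes the 3 Control points lie to the right of the 6 NFAT2 points, while Rsad2 and Ifi27l2a have them on the left and Isg20 has them between the 2 NFAT2 groups.

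ISG15 is a ubiquitin-like protein that is attached to new proteins during infection, and its own gene did not follow the majority. Isg15 was at 1.53, 1.23 and 1.04 CPM in Control, 0.930, 1.51 and 1.26 CPM with NFAT2-CA and, with NFAT2-CARIT, 1.94, 2.17 and 1.30 CPM. The groups overlapped at these low levels, and neither -0.02 ± 0.17 (adjusted p = 0.91) nor 0.30 ± 0.17 (adjusted p = 0.13) passed the test. Without NFAT2-CARIT replicate 3 the second was called, at 0.43 (adjusted p = 0.042). The sign of the first changed with the libraries used, to 0.06 without Control replicate 1 and 0.08 without NFAT2-CA replicate 1.

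Of the 6 genes of the ISG15 and ubiquitin system 4 fell with NFAT2-CA and 5 with NFAT2-CARIT, and the others did not pass. Herc6, the main ISG15 ligase of the mouse, was at 28.9, 30.3 and 31.9 CPM in Control, 11.4, 11.9 and 12.2 in NFAT2-CA and 8.93, 9.76 and 11.5 in NFAT2-CARIT libraries. Control was apart from both, with log2 fold changes of -1.29 ± 0.09 (adjusted p = 4.2e-09) and -1.51 ± 0.09 (adjusted p = 4.9e-10). Herc6 shares 45032 bases of its span and its strand with the gene model Gm45193, so reads between the pair may be split.

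Dtx3l, a ubiquitin ligase that works as a pair with PARP9, was at 382, 377 and 323 CPM in Control, 177, 181 and 191 in NFAT2-CA and 148, 161 and 160.4 in NFAT2-CARIT libraries. The groups were separate, with log2 fold changes of -0.97 ± 0.07 (adjusted p = 2.4e-09) and -1.20 ± 0.07 (adjusted p = 1.5e-10). Usp18, which removes ISG15 and also damps the interferon receptor, had -0.68 ± 0.11 and -0.82 ± 0.11, and Trim30a had -0.70 ± 0.06 and -0.80 ± 0.06. Trim25, the ligase that activates RIG-I, had 0.00 ± 0.06 with NFAT2-CA, not past the test, and -0.18 ± 0.06 (adjusted p = 0.013) with NFAT2-CARIT. That last call was lost with TMM scaling (-0.12, adjusted p = 0.084) and without NFAT2-CARIT replicate 1 (-0.14, adjusted p = 0.07).

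PARP proteins attach ADP-ribose to other proteins, and all 3 on the list fell with both vectors. The fall of Parp12 was built into its being tested, and without it 2 of 2 fell. Parp14 was at 124, 128 and 109 CPM in Control, 48.6, 45.6 and 55.6 CPM with NFAT2-CA and, with NFAT2-CARIT, 39.3, 46.0 and 50 CPM. All NFAT2 libraries were below all Control libraries, with log2 fold changes of -1.25 ± 0.09 (adjusted p = 1.7e-08) and -1.40 ± 0.09 (adjusted p = 4.1e-09). Parp12 was at 2.93, 3.15 and 3.54 CPM in Control, with NFAT2-CA at 0.260, 0.251 and 0.590 CPM and NFAT2-CARIT at 0.812, 0.467 and 0.301 CPM, and only Control libraries exceeded 1 CPM. Its log2 fold changes were -1.63 ± 0.17 (adjusted p = 4.1e-07) and -1.47 ± 0.17 (adjusted p = 1.1e-06), the second not past the test in the authors' deposited table (adjusted p = 0.066).

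Parp9 lies head to head with Dtx3l on chromosome 16, where Parp9, Dtx3l and Parp14 span 35832874 to 35972606. It had smaller changes of -0.64 ± 0.06 and -0.70 ± 0.06. Parp9 and Dtx3l overlap by 683 bases on opposite strands, and Parp14 shares 1774 bases and its strand with the gene model Gm49730.

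Schlafen genes restrain growth and protein synthesis in immune cells, and SLFN2 is known for keeping T cells quiescent. All 4 on the list fell with both vectors, and all 4 lie between 82951349 and 83122671 on chromosome 11. Slfn5 was at 73.7, 74.1 and 66.6 CPM in Control, 11, 13.3 and 16.5 in NFAT2-CA and 10.9, 12 and 11 in NFAT2-CARIT libraries. Its NFAT2 libraries overlapped each other and lay 5.25-fold and 6.34-fold below Control by their means, with log2 fold changes of -2.33 ± 0.11 (adjusted p = 2.6e-11) and -2.56 ± 0.11 (adjusted p = 6.7e-12).

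Slfn1 was at 223, 220.4 and 253 CPM in Control, 52.7, 54.3 and 55.1 CPM with NFAT2-CA and, with NFAT2-CARIT, 54.4, 61.4 and 62.1 CPM. Both NFAT2 groups were far below Control, with log2 fold changes of -2.08 ± 0.07 (adjusted p = 1.9e-13) and -1.95 ± 0.07 (adjusted p = 3.7e-13). Slfn8 was at 77.8, 78.0 and 76.6 CPM, 23.1, 22.7 and 23.5 CPM and 15.2, 20.3 and 22.9 CPM in the same order of groups. It too had no overlap with Control, at -1.70 ± 0.11 (adjusted p = 2.5e-09) and -1.96 ± 0.11 (adjusted p = 4.1e-10).

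Slfn2 was at 486, 462 and 576 CPM in Control, with NFAT2-CA at 251, 262 and 223 CPM and NFAT2-CARIT at 257, 253 and 245 CPM. Its fall, -1.04 ± 0.08 (adjusted p = 8.4e-09) and -1.01 ± 0.08 (adjusted p = 1.1e-08), was the smallest of the 4 Schlafen genes tested, and it overlaps the gene model Gm20234 on the other strand by 4928 bases. Slfn8, Trim30a, Ifit1, Ifit3, Oas1a and Ifi27l2a have close relatives nearby in the genome, so the division of reads among such copies is uncertain.

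Among the other induced genes 6 of 7 fell and Ifi27l2a rose with both vectors. Lgals3bp, a secreted galectin-binding protein gene, was at 38.9, 40.1 and 37.7 CPM in Control, 8.59, 11.8 and 9.40 CPM with NFAT2-CA and, with NFAT2-CARIT, 5.81, 6.64 and 7.72 CPM. The 3 groups were separate and NFAT2-CARIT was lowest, with log2 fold changes of -1.88 ± 0.11 (adjusted p = 4.1e-10) and -2.38 ± 0.11 (adjusted p = 1.8e-11) against Control.

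Xaf1, whose product opposes the apoptosis inhibitor XIAP, was at 19.7, 19.0 and 22.1 CPM in Control, 3.57, 4.69 and 4.22 in NFAT2-CA and 3.35, 3.24 and 3.91 in NFAT2-CARIT libraries. It was 4.87-fold and 5.79-fold lower by group means, with log2 fold changes of -2.05 ± 0.12 (adjusted p = 2.1e-10) and -2.24 ± 0.12 (adjusted p = 5.8e-11). Epsti1 was at 385, 360.3 and 398 CPM in Control, 101, 101 and 100.2 in NFAT2-CA and 99.2, 101 and 106 in NFAT2-CARIT libraries. The 6 NFAT2 libraries of Epsti1 lay within a few CPM of each other, and the log2 fold changes were -1.91 ± 0.06 (adjusted p = 5e-14) and -1.89 ± 0.06 (adjusted p = 4.7e-14).

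Sp100, a component of PML nuclear bodies, was at 482, 487 and 487 CPM in Control, 199, 204 and 200.1 CPM with NFAT2-CA and, with NFAT2-CARIT, 173, 186 and 197 CPM. Its groups were separate, at -1.27 ± 0.06 (adjusted p = 8e-12) and -1.38 ± 0.06 (adjusted p = 2.4e-12) against Control. Sp100 overlaps the gene model Gm17017 on the other strand by 599 bases.

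Shisa5, which encodes the endoplasmic reticulum protein scotin, was at 1895, 1889.6 and 1853 CPM in Control, with NFAT2-CA at 861, 897 and 823 CPM and NFAT2-CARIT at 857, 859 and 859.9 CPM. Both NFAT2 groups were at nearly the same level, 2.18-fold and 2.19-fold below Control, with log2 fold changes of -1.13 ± 0.05 (adjusted p = 1.6e-11) and -1.13 ± 0.05 (adjusted p = 1.3e-11). Ifi35 had -0.42 ± 0.09 and -0.40 ± 0.09.

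Ifi27l2a was at 51.9, 49.7 and 72.7 CPM in Control, 108, 123 and 104 in NFAT2-CA and 138, 128 and 117 in NFAT2-CARIT libraries. All 6 NFAT2 libraries were above all Control libraries, of which replicate 3 was the highest. The log2 fold changes were 0.95 ± 0.13 (adjusted p = 8.9e-05) and 1.14 ± 0.13 (adjusted p = 1.8e-05), and the authors' deposited table gives 0.94 (adjusted p = 2.2e-06) and 1.14 (adjusted p = 4.3e-09).

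The third comparison, NFAT2-CARIT against NFAT2-CA, asks how the same genes differ between the vectors. Of the 35 members 9 were called lower with NFAT2-CARIT (25.7%, against 16.7% of all genes tested) and 2 higher (against 11.9%). The lower ones were Ifih1, Ddx58, Dhx58, Adar, Ifit2, Oas3, Trim25, Dtx3l and Lgals3bp, and the higher ones Rsad2 and Isg20. Isg20 differed by 2.34-fold and Rsad2 by 1.96-fold in their means, and the lower calls ran from -0.62 ± 0.08 (adjusted p = 3.7e-05) in Dhx58 and -0.50 ± 0.11 (adjusted p = 0.0036) in Lgals3bp to -0.18 ± 0.06 (adjusted p = 0.032) in Trim25, and the median of the members was -0.08, against -0.03 for all genes tested. Among the 7 RNA sensors 4 were lower with NFAT2-CARIT, including Ifih1 at -0.30 ± 0.09 (adjusted p = 0.021) and Adar at -0.35 ± 0.07 (adjusted p = 0.0013), and 3 did not pass. None of the 4 Schlafen genes or 3 PARP genes passed, with log2 differences from -0.25 ± 0.11 in Slfn8 to 0.15 ± 0.17 in Parp12.

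Of the 9 lower calls 3 were lost with single libraries left out. Ifih1 (-0.28, adjusted p = 0.054 to 0.068) was lost without replicate 1 or 3 of NFAT2-CA or replicate 2 of NFAT2-CARIT. Trim25 (-0.17 to -0.14, adjusted p = 0.079 to 0.14) was lost without NFAT2-CA replicate 1 or 2 or NFAT2-CARIT replicate 1 or 3, and Dtx3l (-0.19, adjusted p = 0.071 and 0.091) without NFAT2-CA replicate 3 or NFAT2-CARIT replicate 1.

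The comparison between the vectors also depends on the scaling. Of the calls among all genes 41.5% were higher with NFAT2-CARIT on CPM, 55.9% with TMM factors and 50.8% with quantile normalization. With TMM factors 6 members were called lower, Dtx3l, Ifih1 and Trim25 no longer among them, and 3 higher, Slfn1 having joined. The authors' deposited table called Isg20 higher, where it called 1.19% of all genes, and 0 of 39 members lower, where it called 1.65% of all genes. At an unadjusted p under 0.05 that DESeq2 table had 4 of 39 members lower (Ddx58, Dhx58, Adar and Dtx3l) and 2 higher. The share of all genes at that limit was not counted, so these counts cannot be set against a background.

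The genes that carry the interferon signal to these promoters were read from lists of their own. As a background for these counts, 36.5% of all genes tested were called lower and 29.0% higher with NFAT2-CA, and 41.1% and 29.2% with NFAT2-CARIT. Of 6 receptor and JAK-STAT genes 4 fell, 1 rose and 1 did not pass with each vector, with medians of -0.42 and -0.30. Ifnar1 was at 284 ± 5.65 CPM in Control, 211 ± 11.1 CPM with NFAT2-CA and, with NFAT2-CARIT, 250.2 ± 5.73 CPM, log2 fold changes of -0.43 ± 0.06 (adjusted p = 4e-06) and -0.18 ± 0.06 (adjusted p = 0.0072), the second lost with TMM scaling (-0.13, adjusted p = 0.055). The authors' deposited table gives the second as -0.18 (adjusted p = 0.16). Ifnar2 had -0.41 ± 0.06 (adjusted p = 1.8e-05) and -0.41 ± 0.06 (adjusted p = 1.7e-05). The kinase gene Jak1 had -0.80 ± 0.06 (adjusted p = 4e-09) and -0.63 ± 0.06 (adjusted p = 6.3e-08), while Tyk2 did not pass, at -0.06 ± 0.06 and -0.14 ± 0.06 (the second at -0.14, adjusted p = 0.046, without NFAT2-CA replicate 3).

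Irf9 and Stat2, whose products meet in ISGF3, did not move together. Irf9, which encodes its DNA-binding partner, was at 94.6, 93.9 and 96.8 CPM in Control, 54.8, 53.8 and 58.6 in NFAT2-CA and 45.6, 47.7 and 52.0 in NFAT2-CARIT libraries. It was lower with both vectors, at -0.76 ± 0.06 (adjusted p = 2.1e-08) and -0.96 ± 0.06 (adjusted p = 9.5e-10).

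Stat2 went the other way. It was at 63.1, 74.6 and 68.5 CPM in Control, 94.9, 92.5 and 78.3 CPM with NFAT2-CA and, with NFAT2-CARIT, 89.8, 87.6 and 92.7 CPM. All 6 NFAT2 libraries were above all Control libraries, by 0.36 ± 0.08 (adjusted p = 0.00063) and 0.39 ± 0.08 (adjusted p = 0.00029), and the authors' deposited table gives 0.37 (adjusted p = 0.097) and 0.39 (adjusted p = 0.062).

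Sensors, adaptors and factors that lead to interferon production came next. Of 13 tested genes 10 fell and 3 did not pass with each vector, with medians of -0.57 and -0.73. Tlr7, an endosomal RNA sensor gene, reached 1 CPM only in Control libraries, so its fall was built into its being tested, and without it 9 of 12 fell with each vector, with medians of -0.59 and -0.72. Irf7, the factor that amplifies interferon-alpha production and is itself induced by interferon, was at 26.3, 25.9 and 28.7 CPM in Control, with NFAT2-CA at 8.78, 9.76 and 10.9 CPM and NFAT2-CARIT at 11.5, 10.3 and 9.82 CPM. Its NFAT2 libraries overlapped each other and were well below Control, at -1.37 ± 0.10 (adjusted p = 2.7e-09) and -1.28 ± 0.10 (adjusted p = 5.5e-09). The kinase gene Ikbke had -1.14 ± 0.07 and -1.23 ± 0.07, Irf5 had -1.06 ± 0.10 and -0.93 ± 0.10, and Irf3 had -0.79 ± 0.08 and -0.94 ± 0.08.

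The interferon genes themselves give little to read. Of 9 on the list, 8, Ifnb1 among them, were not analysed here, and Ifng was under the filter at 0.425, 0.126 and 0.167 CPM in Control, 0.483, 0.964 and 0.801 in NFAT2-CA and 0.131, 0.824 and 0.401 in NFAT2-CARIT libraries.

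Brakes on the response were mixed, with 2 up, 3 down and 3 not past of 8 with NFAT2-CA, and 3 up, 3 down and 2 not past with NFAT2-CARIT (medians -0.01 and 0.02). These counts are near the shares of all genes tested, 29.0% higher and 36.5% lower with NFAT2-CA and 29.2% and 41.1% with NFAT2-CARIT. They therefore do not set the list apart from other genes. Ptpn6, the gene of the phosphatase SHP-1, rose from 165 ± 6.44 CPM to 463 ± 24.0 and 438 ± 7.59 CPM, by 1.48 ± 0.06 (adjusted p = 1.3e-12) and 1.40 ± 0.06 (adjusted p = 2.2e-12). Ptpn11, the gene of the related SHP-2, had 0.39 ± 0.07 and 0.54 ± 0.07, the first not past the test in the authors' deposited table (adjusted p = 0.056). Socs1, an inhibitor of JAK kinases that interferon induces, did not pass with NFAT2-CA at -0.13 ± 0.09 (adjusted p = 0.2) (but -0.23, adjusted p = 0.033, without NFAT2-CA replicate 3) and fell with NFAT2-CARIT at -0.76 ± 0.09 (adjusted p = 1.2e-06). Socs3 had -0.44 ± 0.06 and -0.62 ± 0.06.

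Interferon-gamma uses a separate receptor, and its list was mixed too. Of 6 tested genes 2 rose, 2 fell and 2 did not pass with NFAT2-CA, and 2 rose, 3 fell and 1 did not pass with NFAT2-CARIT (medians -0.04 and -0.08). Counts among so few genes are near the same shares of all genes tested and do not set this list apart either. Irf1, a factor induced by interferon-gamma, fell from 324 ± 9.99 CPM to 165 ± 1.49 and 168 ± 5.02 CPM, with log2 fold changes of -0.96 ± 0.05 (adjusted p = 1.1e-10) and -0.94 ± 0.05 (adjusted p = 1.2e-10). The receptor chain genes differed in direction, Ifngr1 at -0.70 ± 0.05 and -0.60 ± 0.05 and Ifngr2 at 0.46 ± 0.06 and 0.70 ± 0.06. Irf8 was higher with NFAT2-CA (0.36 ± 0.06) and did not pass with NFAT2-CARIT (0.05 ± 0.06). The authors' deposited table gives the first as 0.37 (adjusted p = 0.19).

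**Figure D5:**
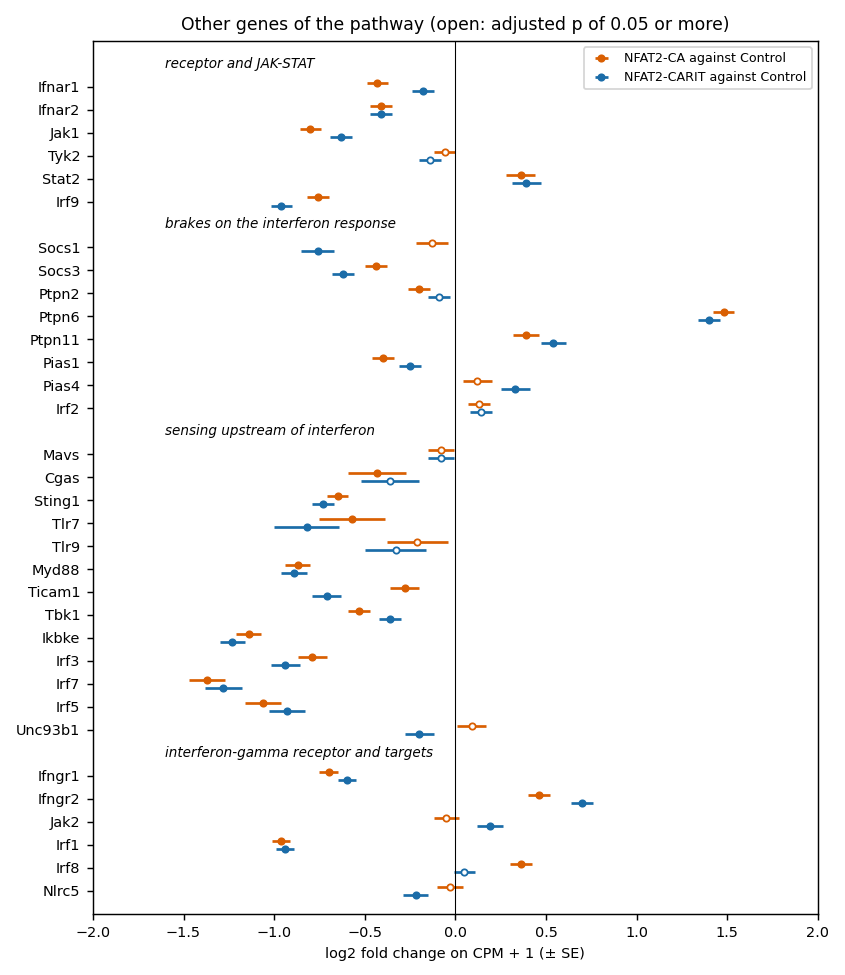
Log2 fold change on CPM + 1 (horizontal axis, bars are SE) with NFAT2-CA and NFAT2-CARIT against Control for the tested genes of the receptor and JAK-STAT list, the brakes, the sensing list and the interferon-gamma list; open points did not pass the test. Most sensing genes lie below 0, down to -1.37 (Irf7), Stat2 lies above 0 in a JAK-STAT list that is mostly below it, and Ptpn6 stands at 1.48 and 1.40.

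Markers of other cells that respond to interferon moved with the groups as well, and in bulk RNA fewer cells of a type and less RNA per cell cannot be told apart. The summed level of 3 measured B cell markers of 5 was 411 to 422 CPM in Control, 206 to 211 CPM with NFAT2-CA and, with NFAT2-CARIT, 182 to 204 CPM, nearly all of it Ighm, with Cd79a at no more than 0.693 CPM in any library. Cd79b was at 2.37 ± 0.371, 0.613 ± 0.385 and 0.824 ± 0.379 CPM in these groups. The 3 measured myeloid and dendritic markers of 7 summed to 6.83 to 9.39, 1.52 to 1.93 and 2.30 to 3.38 CPM, and they did not move together. Itgam was at 7.98 ± 1.24, 0.701 ± 0.0850 and 1.34 ± 0.397 CPM in the same order of groups, while Cd14 was at 0.0283 ± 0.0491, 0.961 ± 0.156 and 0.563 ± 0.188 CPM and Itgax at 0.0598 ± 0.0520, 0.0651 ± 0.0581 and 1.08 ± 0.350 CPM, both under the filter and listed at 0 in some libraries. The 2 measured NK markers of 4, Klrd1 and Eomes, summed to 8.33 to 10.3, 2.56 to 3.12 and 1.59 to 2.30 CPM. Klrd1 was at 5.51 ± 0.969, 0.345 ± 0.0976 and 0.448 ± 0.190 CPM and reached 1 CPM only in Control libraries. Eomes was at 3.59 ± 0.0948, 2.58 ± 0.246 and 1.52 ± 0.180 CPM. Against these, plasmacytoid dendritic markers (2 of 3, mainly Tcf4) were higher in sum, at 9.40 to 11.1, 21.7 to 27.3 and 23.9 to 27.4 CPM. Ccr9, the other one, was under the filter at 0.353 ± 0.165, 0.434 ± 0.675 and 0.0708 ± 0.0338 CPM. Bst2, a member that also marks these cells, passed in no comparison. CD8 T cell markers (2 of 2) summed to 12.5 to 13.7, 28.4 to 30.8 and 22.6 to 24.0 CPM, mainly Cd8b1. Cd8a was at 0.262 ± 0.207, 0.485 ± 0.132 and 1.69 ± 0.331 CPM, and reached 1 CPM only with NFAT2-CARIT. The erythroid marker Alas2 (1 of 4 measured) reached at most 0.528 CPM. The part of such cells in the levels of the interferon-stimulated genes was not tested.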

How the data were processed

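Per the labels' protocols, paired-end reads were taken from RNA of the 9 libraries. The deposited expression values are in CPM: each library sums to the same total once the 0.0001 that was added to every value is subtracted, as checked on the file. The authors' deposited table gives p-values, step-up adjusted p-values, ratios of group means and log2 ratios, per the file headers, and was made with DESeq2 in Partek 10 on mm10, per the submitters' processing notes. Its deposited column of total counts is a summed signal equal to the 9 CPM values together (largest relative difference 3.2e-06), and 23 of its genes have no result. Overlapping and near-identical genes cannot be separated with certainty, since aligner, quantifier, annotation and strand setting were not given in the sources used here.

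Low values lie on steps of 1 read, which gave the depths. Of values no higher than 1 CPM, only 81.3% to 84.4% came out as whole reads within 0.1 read, below the 95% needed, so reads were not rebuilt and no count test was run. CPM is not scaled by gene length, so levels were compared between libraries and not between genes. Limits of 3 reads cover counting error only.

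For log2(CPM + 1) values of all 9 libraries, limma 3.58.1 (R 4.3.3) fitted 1 mean per group with trend and robust empirical Bayes and Benjamini-Hochberg adjustment over the 13090 genes with at least 1 CPM in at least 3 libraries. A fold change on CPM + 1 understates the change of low genes. Genes were called at an adjusted p under 0.05. The test was checked on simulated data for its recovery of known changes, and false calls among unchanged genes were not counted. Python 3.11.15 with pandas 2.3.3, NumPy 2.4.6 and matplotlib 3.10.9 did the rest, and promoter windows came from RefSeq on GRCm38.p6, with gene coordinates as the authors' files list them.

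The members and gene lists were chosen with earlier results of these data known, so counts over them are descriptions and no list was tested. Values in every library are given for members called with a log2 fold change of at least 1 in size in any comparison or called in opposite directions with the 2 vectors, and for Isg15, Ifit1, Ifit3, Stat2, Irf9 and Irf7; Dhx58 and Rtp4 were added after their values were seen. Of the other lists, Ifnar1, Ifnar2, Jak1, Tyk2, Socs1, Ifnb1 and Ifng and up to 4 called genes with the largest change were named. A gene that this rule names is not reported here. Alternatives changed the pseudocount (0.5 or 5), the filter (none or 10 CPM), the scaling (quantile normalization, or trimmed mean of M values, TMM, factors computed in R) or the libraries (each left out in turn, or only the 6 compared), or used a replicate block or the authors' table, and a filter on the mean of 1 CPM over the 9 libraries was added after seeing the data.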

Additional observations from a re-analysis of the deposited data

Results flagged for a closer look

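Isg20 was called in opposite directions against the same Control libraries, lower with NFAT2-CA (log2 fold change -0.40 ± 0.10, adjusted p = 0.0022) and higher with NFAT2-CARIT (0.75 ± 0.10, adjusted p = 4.6e-06), by limma. The test of the difference between the vectors gave 1.15 ± 0.10 (adjusted p = 3.9e-07), with all 3 NFAT2-CARIT libraries above all 3 NFAT2-CA libraries. With all 9 libraries, no other tested member was called in opposite directions with the 2 vectors. Without Control replicate 2, Dhx58 was too, as it stayed called higher with NFAT2-CA and was called lower with NFAT2-CARIT (-0.22, adjusted p = 0.024).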

How the results depend on the processing

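Under every alternative run for the limma test the members called lower against Control numbered 25 to 32 with NFAT2-CA and 25 to 32 with NFAT2-CARIT, and those called higher 3 and 3 to 4. The low count of 25 comes from the filter of 10 CPM, which tests fewer members, and the high count of 32 from no filter, which adds Ifit3, Oas1a and Rtp4.

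The median of the members against Control moved with NFAT2-CA to -0.79 with a pseudocount of 5, -0.99 without a filter, -0.98 with the filter of 10 CPM, -1.13 in the authors' table and -1.09 to -0.95 with a library left out. With NFAT2-CARIT it moved to -0.84, -1.01, -1.07 and -1.21 in the same order, -1.07 with TMM factors, -1.08 with quantile normalization and -1.13 to -1.01 with a library left out. Between the vectors it was -0.13 with the filter of 10 CPM, -0.02 with TMM factors and -0.11 to -0.04 with a library left out.

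The authors' table called 3602, 4216 and 468 genes in the 3 comparisons, where limma called 8574, 9200 and 3745, and between the vectors 1 member higher and 0 lower; the cause was not tested. Reversed signs were those of Trim25 with NFAT2-CA (-0.03 with quantile normalization, -0.00 in the authors' table, -0.04 to 0.02 with a library left out) and of Isg15 with NFAT2-CA (-0.11 to 0.08 with a library left out), neither called.

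Same-numbered libraries of different groups correlated between -0.0687 and 0.26 in their deviations from group means, and differently numbered ones between -0.28 and 0.233. These ranges overlap and do not settle whether the replicate numbers pair the libraries. With the replicate block 29 members were called lower and 3 higher against Control with each vector, 9 lower and 2 higher between the vectors, and no member's call changed. For genes near 1 CPM, such as Ifit1 and Isg15, the values rest on few reads, which limits what can be told apart.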
